A study of Mus musculus with 6 samples.

Results

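The ADAM genes encode membrane proteins with a disintegrin and a metalloprotease domain. The 32 ADAM genes that the array names were compared between testes of aromatase over-expressing (AROM+) and wild-type (WT) mice. They are all genes whose name in the files is Adam, a number and at most the letter a or b, so the secreted ADAMTS proteases are left out. They are measured by 50 of the 55681 probes and make up 32 of 34844 gene or locus names. By textbook knowledge 19 were placed in a germ cell class and 13 in a somatic class. The AROM+ group is 3 male mice with a transgene for over-expression of aromatase, which makes oestrogens from androgens, and the WT group is 3 male mice without it. All were 5 months old on a C57BL/6 background, and total RNA of 1 whole testis per mouse was hybridised to 1 one-colour array. The labels do not give the promoter of the transgene or the line. Spermatid (12 of 12), Sertoli (9 of 9) and Leydig cell markers (7 of 7) were measured above background, as the label testis implies. Of 12 epididymal markers 6, among them Gpx5 and Lcn5, were well above background on none of the 6 arrays. The other 6 were so on all 3 arrays of at least 1 group. In the comparison below, Cst11 among them was called higher in AROM+, with overlapping groups, and 2 (Spag11b and Lcn9) lower. Of all features 14.5% were called higher and 31.4% lower. Lcn9 was well above background on 3 WT arrays and 1 AROM+ array.

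In an ADAM protein a prodomain keeps the metalloprotease silent until a furin-like convertase removes it, and the disintegrin and cysteine-rich domains bind partner proteins. Several family members have lost the zinc-binding residues and act in adhesion only. The germ cell ADAMs are made in meiotic and haploid cells, are processed on the way to the sperm surface and include fertilin (Adam1a, Adam1b and Adam2) and cyritestin (Adam3). Mouse mutants of Adam1a, Adam2 and Adam3 make sperm that fail to pass from the uterus into the oviduct. The somatic ADAMs include the sheddases Adam10 and Adam17, which cut growth factors, cytokines and receptors off the cell surface.

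Most germ cell ADAM genes were lower and most somatic ones higher in AROM+ testes. Of the 32 genes 31 had a probe well above background on all 3 arrays of a group and were tested. Adam7, an epididymal gene placed in the somatic class, was above background on none of the 6 arrays. By limma, adjusted over 28925 features, 15 of 19 germ cell genes fell, 0 rose and 4 were not called. Of all features 31.4% were called lower and 14.5% higher. Of 12 somatic genes 8 rose, 3 fell and 1 was not called. The AROM+ and WT values did not overlap for 17 germ cell genes, all lower, against 41.1% of all features lower without overlap. They did not overlap for 8 somatic genes that were higher and 3 that were lower, against 17.9% of all features higher without overlap. The median difference (AROM+ minus WT, log2) was −0.42 over the germ cell genes, 0.43 over the somatic genes and −0.19 over all features.

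The scale sets how many of the falls are called. Centring on bright probes moved the median of all features to 0.029, and 3 germ cell genes were then called lower (9.90% of all features). With quantile normalization that median was −0.091 and 5 were called lower (21.4% of all features). Relative to the median of all features, the germ cell median was −0.23 and the somatic median 0.62. Centring on bright probes shifts every gene alike, so it cannot change these relative medians. With quantile normalization they were −0.18 and 0.64. WT arrays also set the count: 3 germ cell genes were called lower without WT replicate 3 (17.2% of all features) and 5 without WT replicate 1 (18.9%). Without WT replicate 3 the class was thus not called lower more often than all features. The count was 10 without AROM+ replicate 1 or without AROM+ replicate 2 (22.5% and 25.4% of all features). Somatic genes called higher were 4 without WT replicate 3, 5 without WT replicate 1 and 4 with spike-in scaling, a setting added after seeing the data. The shares of all features called higher there were 9.52%, 9.68% and 9.43%.

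**Figure D1:**
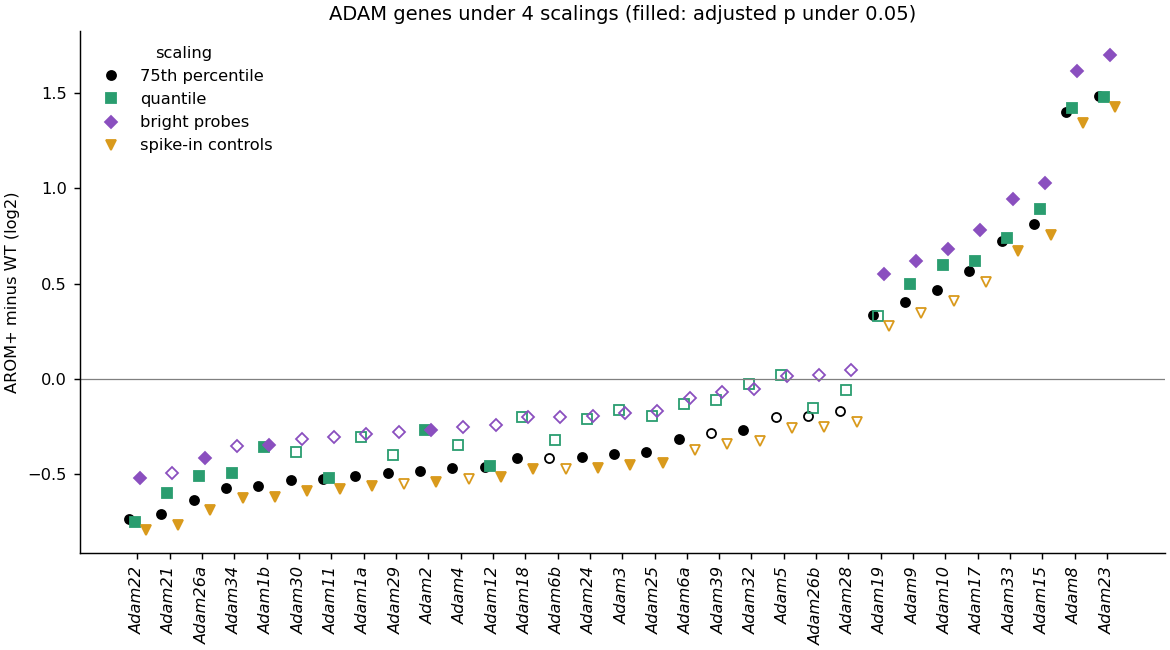
Difference of each of the 31 tested ADAM genes (AROM+ minus WT, log2, vertical axis) with the arrays scaled on the 75th percentile, by quantiles, on bright probes or on spike-in controls. Filled points have an adjusted p under 0.05. Bright-probe and spike-in scaling shift every gene alike. Adam23 and Adam8 stay above 1. With bright probes 17 of 19 germ cell genes lie below 0, and Adam1b, Adam2 and Adam26a are called lower on each scale.

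Across the series, 76.6% to 80.6% of spots were well above background and 0 were saturated. The arrays correlated at r = 0.994 to 0.996 within WT, 0.988 to 0.992 within AROM+ and 0.961 to 0.983 between groups, across probes, which are not independent replicates. In all, 4201 features were called higher and 9073 lower, against 6133 and 2863 with centring on bright probes, 4700 and 6189 with quantile normalization, 2801 and 5462 without WT replicate 1, and 2753 and 4970 without WT replicate 3. The labels name single testes, so the p-values measure the spread between these mice. All arrays were on 1 slide, WT in one row and AROM+ in the other, so slide row and genotype cannot be told apart.

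Probes of near relatives in the family can share signal, and the closest pair is shown because it limits how far Adam25 and Adam39 are separate measurements. Both encode testases, a mouse-specific group of testis ADAMs. Capitals mark the 21-base run the probes share. Aligned on it, 32 of 35 bases are identical (91.4%). Both probes lie on chromosome 8 (mm9 coordinates of the files, 41841247 to 41841306 and 41912135 to 41912194).
Adam25: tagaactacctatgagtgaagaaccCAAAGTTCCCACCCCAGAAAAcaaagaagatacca
Adam39: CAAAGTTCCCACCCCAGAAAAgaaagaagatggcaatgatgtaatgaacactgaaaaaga
In all, 7 member probes shared a run of at least 16 bases with a probe of another gene or locus, and outside this pair the longest was 19 bases. The probe of Adam4 was 88.9% identical over 54 bases with an unnamed probe on chromosome 9, which was at −0.39 ± 0.14.

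The promoters of the classes differ in base composition. The RefSeq table (GRCm38.p6, 250 bases before to 50 after a gene start) held 9 germ cell and 7 somatic ADAM genes. Germ cell promoters had 0 to 4 CpG dinucleotides (median 1) and a median GC content of 39.7%. The 9 promoters of the 7 somatic genes had 5 to 32 (median 19) and 65.3%, and the medians over all 32851 promoters were 7 and 52.7%. The 4 examples follow, from 2 somatic genes that rose and 2 germ cell genes that fell, with each CG in capitals and the strand given after the position of the 250 upstream bases.
Adam15, chr3:89350029-89350278, minus strand: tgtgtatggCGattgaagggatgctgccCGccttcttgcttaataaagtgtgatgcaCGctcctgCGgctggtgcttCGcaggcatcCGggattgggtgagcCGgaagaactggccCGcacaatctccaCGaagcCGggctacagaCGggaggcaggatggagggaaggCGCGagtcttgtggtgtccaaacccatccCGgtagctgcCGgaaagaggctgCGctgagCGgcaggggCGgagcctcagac
Adam17, chr12:21373633-21373882, minus strand: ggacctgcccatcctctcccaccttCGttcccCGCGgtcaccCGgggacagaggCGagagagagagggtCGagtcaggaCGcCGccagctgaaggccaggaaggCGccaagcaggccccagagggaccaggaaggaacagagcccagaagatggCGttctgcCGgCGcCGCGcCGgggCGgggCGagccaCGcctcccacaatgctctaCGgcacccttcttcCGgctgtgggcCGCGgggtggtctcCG
Adam1b, chr5:121503436-121503685, minus strand: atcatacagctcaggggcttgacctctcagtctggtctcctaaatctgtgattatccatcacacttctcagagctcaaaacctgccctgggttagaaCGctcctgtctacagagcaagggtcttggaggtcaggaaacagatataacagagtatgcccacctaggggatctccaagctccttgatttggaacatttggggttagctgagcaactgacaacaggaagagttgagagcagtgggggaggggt
Adam21, chr12:81568475-81568724, minus strand: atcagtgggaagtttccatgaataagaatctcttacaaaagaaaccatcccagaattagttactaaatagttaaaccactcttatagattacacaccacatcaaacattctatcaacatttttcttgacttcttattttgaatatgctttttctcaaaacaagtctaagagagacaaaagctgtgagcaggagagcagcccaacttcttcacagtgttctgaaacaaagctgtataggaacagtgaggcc
These runs hold 18, 23, 1 and 0 CpG. On either strand of the 300-base windows, GGGCGG occurred in 5 of 9 somatic and 0 of 9 germ cell promoters (35.7% of all promoters). TATAAA occurred in 0 of 9 and 3 of 9 (13.6% of all), TGANTCA in 1 of 9 and 3 of 9 (7.8%), TGACG in 1 of 9 and 0 of 9 (20.8%), and TGACGTCA, which contains TGACG, in 0 of either (1.8%). Among the somatic genes with a promoter here, Adam22 had 19 CpG and Adam8, which rose, had 6. Adam22 was the only one of them that fell, so an order by CpG content cannot be judged. The 3 germ cell promoters with TATAAA are those of Adam29, Adam6a and Adam6b, and Adam6a and Adam6b hold it within the same stretch of bases. Among the somatic genes only Adam19 has several promoters here, so the 9 windows are not separate genes. Letter matches describe the windows and are not binding sites.

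Fertilin and its relatives fell by small amounts. Values are levels, log2 of the processed intensity minus its 75th percentile on that array, and differences are AROM+ minus WT with the limma standard error (SE). Adam2, fertilin β (chromosome 14, 66648532 to 66648591, mm9), read 3.17, 3.18 and 3.19 in WT and 2.65, 2.72 and 2.70 in AROM+. Every AROM+ testis was below every WT testis, and its SE was the smallest among the tested germ cell genes (−0.49 ± 0.079, adjusted p = 0.00603). Adam1b, the α subunit found on mature sperm, read 2.65, 2.64 and 2.84 in WT and 2.05, 2.29 and 2.09 in AROM+ (−0.57 ± 0.11, adjusted p = 0.00884). Adam1a, the α subunit that stays in the germ cell's endoplasmic reticulum with Adam2, read 2.55, 2.45 and 2.65 in WT and 1.99, 2.23 and 1.89 in AROM+ (−0.51 ± 0.12, adjusted p = 0.0149). For both genes the groups did not overlap. In bulk tissue, fewer cells of a type and less RNA per cell cannot be told apart.

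Adam3 and the genes next to it are related sperm ADAMs. Adam3, cyritestin, read 4.23, 4.44 and 4.41 in WT and 3.84, 3.97 and 4.07 in AROM+ (−0.40 ± 0.11, adjusted p = 0.0235), and its other probe fell by more (−0.74 ± 0.18). Adam18 read 2.74, 2.80 and 2.91 in WT and 2.30, 2.50 and 2.39 in AROM+ (−0.42 ± 0.097, adjusted p = 0.0150). Its AROM+ values all lay below the WT values. Adam32 read 4.14, 4.31 and 4.27 in WT and 3.93, 3.99 and 3.99 in AROM+, the smallest fall that was called (−0.27 ± 0.088, adjusted p = 0.0437). Its other probe, not called in the fit over 42638 probes (where 14% were higher and 30.4% lower), was at −0.31 ± 0.11. Adam5, whose protein travels with those of Adam3 and Adam2, was not called (−0.20 ± 0.097, adjusted p = 0.128), although its AROM+ values did not overlap with WT, and its other probe was at −0.23 ± 0.095.

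In RefSeq order these genes lie side by side on chromosome 8 as Adam18, Adam3, Adam5, Adam32 and Adam9. Along this row Adam18, Adam3 and Adam32 fell, Adam5 was not called and Adam9, a broadly expressed sheddase at the end of it, rose. Adam9 read 0.52, 0.63 and 0.52 in WT and 0.95, 0.86 and 1.07 in AROM+ (0.40 ± 0.094, adjusted p = 0.0154). Its values in the AROM+ testes were all above those in WT, so the direction turned between Adam32 and Adam9, which are neighbours.

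**Figure D2:**
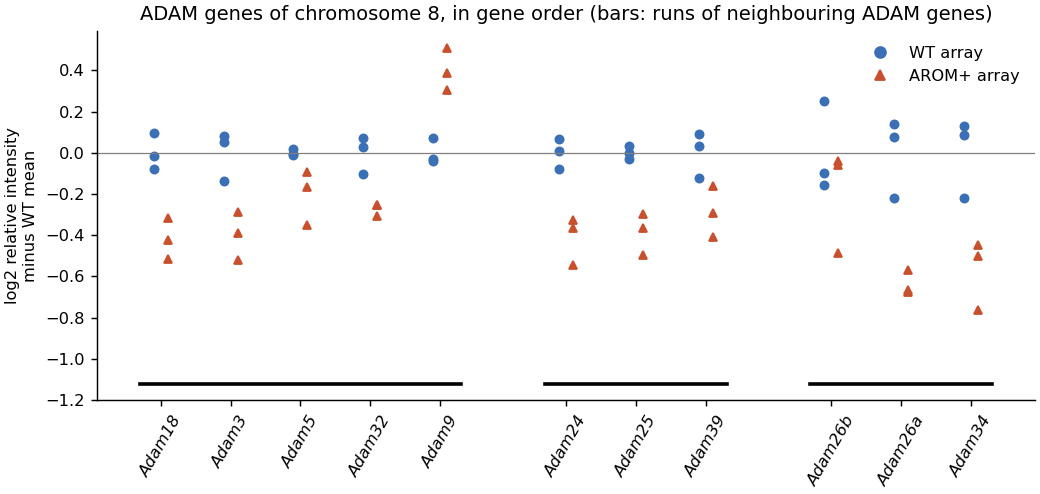
Log2 processed intensity of each array minus the mean of the WT arrays of that gene (vertical axis), 1 point per testis, for the ADAM members in 3 rows of neighbouring genes on chromosome 8 in RefSeq order, evenly spaced and not to genomic scale. AROM+ points lie below all WT points from Adam18 to Adam32 and above them in Adam9. In the testase rows they lie below all WT points except in Adam26b.

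The testases are proteases of late germ cells, and their genes form further rows on chromosome 8. Adam26a (testase 3, chromosome 8, 44653864 to 44653923, mm9) read 1.60, 1.25 and 1.54 in WT and 0.80, 0.90 and 0.79 in AROM+ (−0.64 ± 0.12, adjusted p = 0.00811), and its other probe fell too (−0.47 ± 0.15). Its neighbour Adam26b was not called (−0.20 ± 0.17, adjusted p = 0.365). Adam34 read 0.90, 0.60 and 0.95 in WT and 0.37, 0.31 and 0.051 in AROM+ (−0.57 ± 0.14, adjusted p = 0.0165), with its other probe at −0.65 ± 0.17. Adam24 (testase 1) read 2.51, 2.42 and 2.57 in WT and 1.96, 2.17 and 2.14 in AROM+ (−0.41 ± 0.099, adjusted p = 0.0164). For Adam26a, Adam34 and Adam24 the groups did not overlap, whereas those of Adam26b did. Adam25 (testase 2) read 2.40, 2.33 and 2.36 in WT and 1.87, 2.07 and 2.00 in AROM+ (−0.39 ± 0.091, adjusted p = 0.0157). Adam39, whose probe shares the run shown above, was at −0.29 ± 0.11 and missed the threshold (adjusted p = 0.0650).

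Of the remaining germ cell ADAM genes all but Adam6b fell. Adam21 (chromosome 12, 82659925 to 82659984, mm9) had the largest fall of the class by brightest probes and read 1.41, 1.07 and 1.51 in WT and 0.64, 0.85 and 0.36 in AROM+ (−0.71 ± 0.17, adjusted p = 0.0160). Adam30 read 1.74, 1.68 and 1.90 in WT and 1.10, 1.48 and 1.16 in AROM+ (−0.53 ± 0.13, adjusted p = 0.0173). Adam29 read 1.06, 0.64 and 1.19 in WT and 0.42, 0.56 and 0.41 in AROM+ (−0.50 ± 0.15, adjusted p = 0.0379). These genes are transcribed mainly in testis and the proteins are less studied than fertilin. Adam4 read 1.41, 1.05 and 1.59 in WT and 0.87, 0.93 and 0.84 in AROM+ (−0.47 ± 0.15, adjusted p = 0.0373). Adam6a, which sits inside the immunoglobulin heavy-chain locus and is needed with Adam6b for male fertility, read 2.27, 2.27 and 2.41 in WT and 1.86, 2.09 and 2.05 in AROM+ (−0.32 ± 0.10, adjusted p = 0.0420). Adam6b, its near copy, was at −0.42 ± 0.17 and was not called (adjusted p = 0.0825). AROM+ and WT values overlapped for Adam26b and Adam6b in the germ cell class.

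The calls of Adam1b, Adam2 and Adam26a held under all 19 alternatives. Without WT replicate 3 the other 12 germ cell calls were lost, and without WT replicate 1 all of these 12 except those of Adam18 and Adam3. Adam29, Adam32, Adam4 and Adam6a lost theirs in at least 10 alternatives. Adam3 lost its call without any 1 of WT replicates 2 and 3 and AROM+ replicates 1 and 2, Adam32 and Adam6a without any 1 array, and Adam29 and Adam4 without any 1 array except WT replicate 2. Adam6b was called without WT replicate 2.

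**Figure D3:**
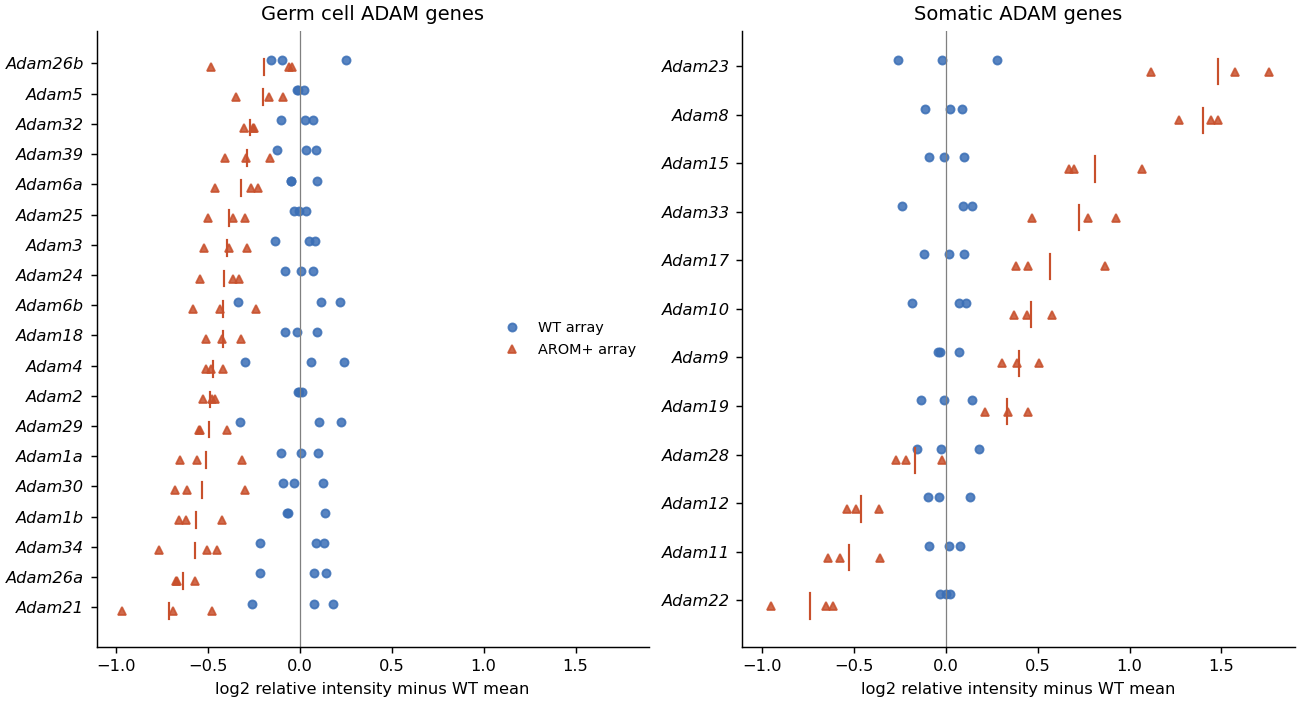
Log2 processed intensity of each array minus the mean of the WT arrays of that gene, for germ cell ADAM genes (left) and somatic ADAM genes (right), 1 row per gene and 1 point per testis, with a bar at the AROM+ mean. AROM+ points lie below all WT points in 17 of 19 germ cell genes, and above them in 8 of 12 somatic genes.

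Most germ cell markers were also called lower on the main scale, where 31.4% of all features were lower and 14.5% higher. Of 8 pachytene spermatocyte markers 6 were lower and 0 higher, and their summed level (in multiples of the array's 75th percentile) was 90.9 to 93.2 in WT and 68.4 to 76.3 in AROM+. Of 12 spermatid markers 9 were lower and 0 higher, with summed levels of 225 to 296 in WT and 185 to 195 in AROM+. Such sums weigh the brightest genes most, and the brightest spermatid markers, Prm2 and Prm1, were not called. The spermatid count was 5 without WT replicate 1 or AROM+ replicate 1 and 4 without WT replicate 3, and the pachytene count was 3 without WT replicate 1. With quantile normalization 4 spermatid and 2 pachytene markers were called lower, with centring on bright probes 2 and 1, and with spike-in scaling 5 and 3. The shares of all features called lower on these scales were 21.4%, 9.90% and 22.4%. The median differences of the pachytene and spermatid lists, −0.36 and −0.45, lay on either side of the germ cell ADAM median of −0.42. The part of germ cell number in the falls of the germ cell ADAM genes was not tested.

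Adam23 and Adam8 rose by more than 2-fold. Of all features, 5.01% were called and at least 2-fold higher. Adam8, a catalytically active ADAM of myeloid cells that inflammatory signals induce (chromosome 7, 147164873 to 147164932, mm9), read −1.16, −1.10 and −1.30 in WT and 0.26, 0.088 and 0.30 in AROM+. The groups were far apart relative to their spread (1.40 ± 0.10, adjusted p = 0.00187), a rise of 2.64-fold. Adam23, which lacks protease activity and binds integrins and LGI proteins (chromosome 1, 63639339 to 63639398, mm9), read −2.12, −1.82 and −2.35 in WT and −0.34, −0.98 and −0.52 in AROM+. It rose by 1.48 ± 0.20 (2.80-fold, adjusted p = 0.00456). Its other kept probes also rose, by 1.35 ± 0.12 and 1.10 ± 0.23. A 4th Adam23 probe was well above background on 1 WT array and on 0 AROM+ arrays and was not kept. These are the only members past 2-fold in either direction.

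Sheddases and their relatives rose by less. Adam17, the tumour necrosis factor converting enzyme, read −0.13, −0.050 and −0.27 in WT and 0.71, 0.30 and 0.23 in AROM+ (0.56 ± 0.15, adjusted p = 0.0218). Its other probe shares 52 of its bases and was at 0.60 ± 0.15. Adam10, the sheddase that starts Notch and APP processing, read 1.12, 1.16 and 0.86 in WT and 1.49, 1.42 and 1.63 in AROM+ (0.47 ± 0.12, adjusted p = 0.0181). Both genes were higher in every AROM+ testis than in every WT testis. Adam15, which carries an integrin-binding RGD motif in human and is made by endothelium, read 0.10, 0.21 and 0.021 in WT and 1.18, 0.78 and 0.81 in AROM+ (0.81 ± 0.13, adjusted p = 0.00615). Adam33, a gene of mesenchymal cells, read −3.81, −4.19 and −3.86 in WT and −3.18, −3.48 and −3.03 in AROM+ (0.72 ± 0.16, adjusted p = 0.0125). Other probes of Adam33 were at 0.48 ± 0.16, also called, and 0.030 ± 0.16, not called, so the size of its rise depends on the probe. Adam28, a lymphocyte and epididymal ADAM, was not called (−0.17 ± 0.12, adjusted p = 0.288), and its other probe was above background on 1 WT array only.

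The meltrins, ADAMs first described in muscle and bone, did not move as a group. Adam9, meltrin γ, rose as given above. Adam19, meltrin β, read −2.79, −2.66 and −2.51 in WT and −2.31, −2.44 and −2.21 in AROM+ (0.33 ± 0.11, adjusted p = 0.0458), while its other probe, not called, lay on the other side of 0 (−0.27 ± 0.13). Adam12, meltrin α, fell by its only probe above background. It read −2.90, −2.67 and −2.84 in WT and −3.34, −3.16 and −3.29 in AROM+ (−0.46 ± 0.10, adjusted p = 0.0127). The probe is shown because its alignment spans 2237 bases of chromosome 7 (141079625 to 141081861, mm9), so its 60 bases come from more than 1 block of the genome.
Adam12: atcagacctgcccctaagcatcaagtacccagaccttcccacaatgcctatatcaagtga
The other Adam12 probes were above background on none of the 6 arrays, so the fall describes transcripts that hold this stretch.

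Adam11 and Adam22, which like Adam23 lack the catalytic site and bind LGI proteins in neurons, moved against it. Adam22 (chromosome 5, 8092341 to 8092400, mm9) read −2.11, −2.16 and −2.13 in WT and −2.79, −2.75 and −3.09 in AROM+ and fell by 0.74 ± 0.11 (adjusted p = 0.00537). Of its other probes 1 was not called (−0.24 ± 0.26) and 1 was above background on no array. Adam11 read −0.48, −0.65 and −0.54 in WT and −1.20, −0.92 and −1.14 in AROM+ (−0.53 ± 0.11, adjusted p = 0.0106), and its other probe, not called, was at −0.19 ± 0.095. For the 3 somatic genes that fell the groups did not overlap. Of genes with several kept probes, Adam19 alone had probes on either side of 0, and no 2 probes of a gene were called in opposite directions.

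The somatic calls of Adam8, Adam15, Adam23 and Adam33 held under all 19 alternatives. Adam17 and Adam9 lost theirs without WT replicate 1 or WT replicate 3, Adam10 without WT replicate 3, and Adam19 without any 1 array. With centring on bright probes Adam11 and Adam12 were not called, and Adam22 was not called with the mean of its probes.

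**Figure D4:**
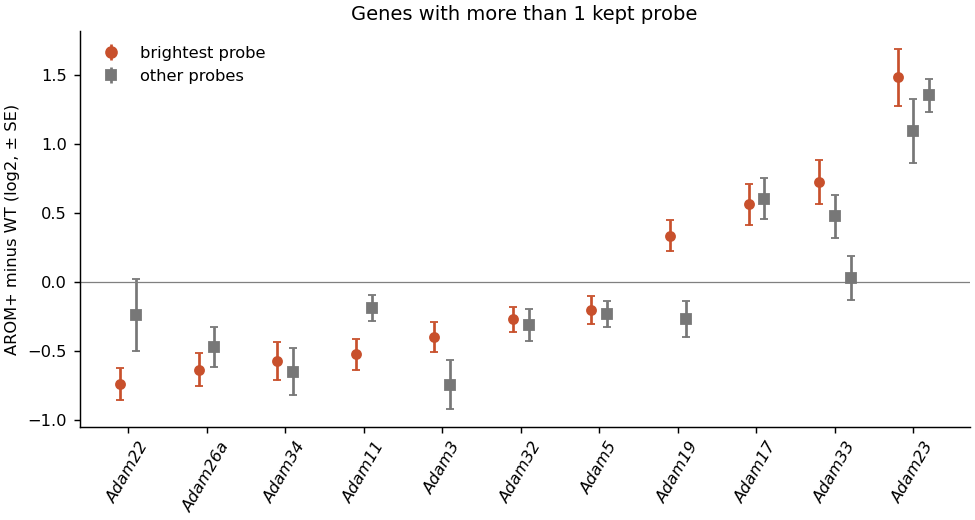
Difference between AROM+ and WT (log2, limma SE as bars) of each kept probe of the ADAM genes that have several, with the brightest probe of a gene as a circle and its other probes as squares. The 3 probes of Adam23 lie together above 1, while those of Adam33 run from 0.030 to 0.72 and those of Adam19 lie on either side of 0.

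Markers of somatic cells also moved. For comparison, 14.5% of all features were called higher and 31.4% lower on the main scale. Of 14 macrophage markers 11 were higher and 2 lower, with summed levels of 52.8 to 69.7 in WT and 78.8 to 105 in AROM+. The brightest in WT were Itgam (mean level 4.67, not called), Aif1 (4.08, lower) and Csf1r (2.47, lower by its brightest probe). They weigh most in these sums, which therefore do not give the level of the 11 markers that rose. Of 9 fibroblast and matrix markers 7 were higher and 0 lower (summed levels of 15.2 to 20.5 in WT and 28.3 to 40.1 in AROM+). The count of 11 macrophage markers higher was the same without any 1 array. The count of 2 lower was 0 without WT replicate 1 or 2, 1 without WT replicate 3 or AROM+ replicate 1 or 2, and 0 with quantile, bright-probe or spike-in scaling. For the fibroblast list, 4 fibroblast markers were higher without WT replicate 1 or WT replicate 3. Endothelial markers were higher for 6 and lower for 1 of 8 (summed levels of 3.74 to 4.46 in WT and 4.37 to 5.26 in AROM+). The brightest in WT, Kdr (mean level 0.86, lower) and Vwf (0.79, not called), weigh most in these sums, not the 6 that rose. The endothelial counts were the same without any 1 array, and 0 were lower with bright-probe or spike-in scaling. T and B cell markers were higher for 2 and lower for 2 of 9 (summed levels of 2.65 to 2.96 in WT and 2.17 to 3.60 in AROM+). Cd3d, the brightest of them in WT (mean level 0.85) and called lower, weighs most in the WT sums. The T and B counts were 2 and 1 without WT replicate 1 or AROM+ replicate 3, 2 and 0 without WT replicate 2, 1 and 0 without WT replicate 3, and 4 and 2 without AROM+ replicate 2. With quantile normalization they were 2 and 1, with bright probes 3 and 0, and with spike-in scaling 1 and 1. Leydig cell markers were higher for 4 and lower for 0 of 7, and Sertoli cell markers for 3 and 0 of 9. The Leydig count higher was 3 without WT replicate 1 or 3 or AROM+ replicate 1 or 2, and 3 with spike-in scaling. The Sertoli count higher was 2 without WT replicate 1 or 3 or AROM+ replicate 2 or 3, and 4 with centring on bright probes. The part of the cells of these lists in the rises of the somatic ADAM genes was not tested.

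Most genes for proteins that fold, process or accompany sperm ADAMs were also lower. Of 14 tested genes of this list 11 were lower and 1 higher (median −0.42), against 31.4% and 14.5% of all features. Pcsk4, the convertase that processes sperm ADAMs, fell (−0.57 ± 0.086, adjusted p = 0.00527). Cmtm2b (−0.53 ± 0.092, adjusted p = 0.00701) and Rnase10 (−0.53 ± 0.11, adjusted p = 0.0101) were lower. Ace (−0.48 ± 0.087, adjusted p = 0.00745), whose germinal form is needed for sperm passage into the oviduct, fell as well. Tpst2, a sulfotransferase that acts on tyrosine, was the only member of the list that rose (0.48 ± 0.13, adjusted p = 0.0254). Tex101 (−0.071 ± 0.10) and Ly6k (−0.26 ± 0.10), partners of Adam3 on germ cells, were not called. The number lower was 3 with quantile normalization or with centring on bright probes, and 6 with spike-in scaling. Leaving out WT replicate 1 gave 6 and WT replicate 3 gave 7, and Tpst2 was not called without either.

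Activators and inhibitors of the somatic sheddases were mostly higher or not called. Of 18 genes 9 were higher and 2 lower (median 0.44), against 14.5% and 31.4% of all features. Timp1, a metalloprotease inhibitor that also blocks Adam10, rose by 3.47 ± 0.29 (adjusted p = 0.00228). Tspan14 (1.26 ± 0.19, adjusted p = 0.00519) and Tspan15 (1.27 ± 0.18, adjusted p = 0.00473) encode tetraspanins that carry Adam10 to the surface. The other probe of Tspan15 was at −0.045 and was not called. Rhbdf2, the iRhom that brings Adam17 out of the endoplasmic reticulum, rose by 1.00 ± 0.16 (adjusted p = 0.00556). Reck, an inhibitor anchored in the membrane, was at 0.64 ± 0.11 by its brightest probe and at −0.50 by another, both called. Pcsk5, Tspan5 and Timp2 were not called by their brightest probes. Their other probes were called, at −0.61, −0.56 and 0.42. Tspan10, a tetraspanin gene (−0.49 ± 0.097), and Frmd8, which stabilises the iRhom and Adam17 complex (−0.34 ± 0.100), fell. Tspan10 was dim, with mean levels of −5.76 in WT and −6.25 in AROM+. The lowest signals above background were −7.39 to −6.69 across the arrays. Leaving out any 1 of WT replicates 1 and 3 and AROM+ replicates 1 and 3 left 1 gene of the list lower, as did quantile or spike-in scaling, and centring on bright probes left 0.

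Genes of proteins that Adam10 and Adam17 shed also moved in both directions. Of 24 tested genes 10 were higher and 3 lower (median 0.40), against 14.5% and 31.4% of all features, while Btc and Tnf did not pass the filter. Tnfrsf1b, a tumour necrosis factor receptor of leukocytes, rose by 3.61 ± 0.31 (adjusted p = 0.00228). Cxcl16, a membrane-bound chemokine (2.24 ± 0.30, adjusted p = 0.00438), and the macrophage growth factor gene Csf1 (1.42 ± 0.30, adjusted p = 0.0111) also rose. Il6ra, the interleukin-6 receptor, rose by 1.35 ± 0.26 (adjusted p = 0.00847). The growth factor genes Epgn (−1.07 ± 0.22) and Tgfa (−0.54 ± 0.15) fell. Csf1r, the receptor of Csf1, was called lower by its brightest probe (−0.44 ± 0.12), but higher by its other probes (2.04 ± 0.40 and 1.54 ± 0.22), so its direction depends on the probe. Csf1r is also among the macrophage markers above. Cd44 was not called by its brightest probe (0.20), while its other probes were at −0.97 and 1.38, both called. The number lower was 1 without WT replicate 1 or without AROM+ replicate 2, and 1 with bright-probe or spike-in scaling.

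**Figure D5:**
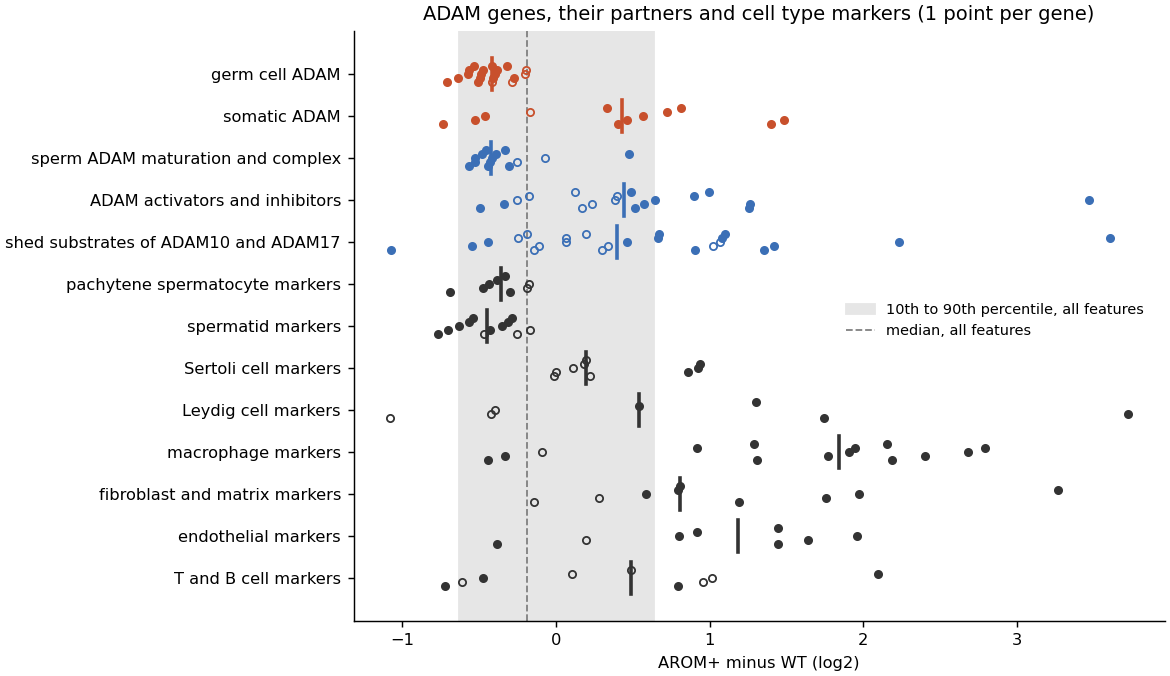
Difference between AROM+ and WT (log2) of each tested gene of the ADAM classes, the partner lists and the cell type marker lists, with filled points for called genes and a bar at each median. The grey band spans the 10th to 90th percentile of all features (−0.63 to 0.64) and the dashed line is their median of −0.19.

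Adamdec1 is a secreted relative that lies between Adam7 and Adam28 on chromosome 14. By its brightest kept probe it was well above background on 3 WT arrays, and by neither of its 2 probes on any AROM+ array. Taking the lowest signal above background or the probe's own on each AROM+ array, the group means of Adamdec1 differ by at least 1.45-fold, AROM+ lower. This bound has no error. The mean WT level of −6.17 was also near the lowest signals above background on the WT arrays (−7.39 to −6.70). Adamdec1 passed the filter through the WT arrays alone, so no test is given. No ADAM gene of the 31 tested was above background in one group only.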

How the data were processed

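Spot intensities were deposited as Agilent Feature Extraction output (version 10.7.3.1 per the file headers, 10.10 per the submitters' processing notes), and their processed signal had the background subtracted, per the file headers. The deposited log2 table matched log2 of that signal minus 1 constant per array (slope 1.00; 93.9% to 94.1% of spots within 0.01), was not centred by gene, and served as an alternative. Its column medians ran from −3.12 to −3.02. How the constants were chosen is not given in the sources used here.

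Control spots and outlier flags (123 to 192 per array) were left out, spots of a probe averaged, and log2 values centred on each array's 75th percentile. Probes well above background on all 3 arrays of a group were kept (42638), and a gene was represented by its brightest. Groups were compared with limma 3.58.1 (R 4.3.3), Benjamini-Hochberg over 28925 features, threshold 0.05. On simulated data for AROM+ against WT (28925 features, 200 changed) it recovered 12% of changes of 0.5, 58% of 1, 96% of 2 and 100% of 4 on the log2 scale, with 10 false calls among 143. In the data 4201 features were called higher and 9073 lower. The adjustment is stricter with 200 changed, so these rates do not carry over to the real fit.

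All members are named, called members with every array's value, and up to 4 called genes of each partner list by size. Further partner genes (Tpst2, Tex101, Ly6k, Reck, Pcsk5, Tspan5, Timp2, Tspan10, Frmd8, Tgfa, Epgn, Csf1r, Cd44) were chosen after their values were seen. Members and lists were chosen with earlier results of these data known. Replicate numbers did not pair the samples. Names are the files' own, and equal those of RefSeq (GRCm38.p6) for all 50 member probes. Probe coordinates are mm9, per the files. Arrays, 3 per group, limit the precision.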

Additional observations from a re-analysis of the deposited data

How the results depend on the processing

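Of the single-gene results under all alternatives, 479 kept direction and side of the threshold, 102 lost a call, 4 gained one and 4 changed sign. Those that changed sign were uncalled genes: Adam26b (0.022), Adam28 (0.048) and Adam5 (0.015) with centring on bright probes, and Adam5 (0.019) with quantile normalization. The germ cell genes called lower numbered 15 in the main analysis, 5 with quantile normalization, 3 with centring on bright probes and 3 to 13 when 1 array was left out. The shares of all features called lower were 31.4%, 21.4%, 9.90% and 17.2% to 27.7% in the same order. The count of 0 germ cell genes called higher held under all alternatives. The somatic genes called higher numbered 8, 4 with spike-in scaling (chosen after seeing the data) and 4 to 7 when 1 array was left out. Those called lower numbered 3, 1 with centring on bright probes and 3 without any 1 array. The cause was not tested. With the replicate number as a block, 11 germ cell genes were lower, and 6 somatic genes were higher and 3 lower; same-numbered arrays did not deviate together (correlations of 0.049, −0.17 and 0.050), so they share only a number. The slide as a block was not run, because all arrays were on 1 slide.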

Other observations

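RefSeq assigns 1 further probe, which the files name 4930529F22Rik, to Adam20, a gene that lies between Adam25 and Adam39. It was at −0.56 ± 0.10 (limma over probes, adjusted p = 0.00772) and is outside the gene name rule. In 14 of 19 germ cell ADAM genes WT replicate 2 was the lowest of the WT arrays, as it was in 4 of 12 somatic ones. Its difference from the mean of the other WT arrays ran from −0.50 to 0.38 in the germ cell class. One spot of the unkept Adam23 probe carried an outlier flag on WT replicate 3 and was left out.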
